A study of Mus musculus with 75 samples.

Results

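A 36 h fast was compared with free feeding in mouse hypothalamic nuclei that carry no GFP tag. The mice were LepRcre/+; SUN1-sfGFP/+ in every group: a Cre recombinase under control of the leptin receptor gene switches on a green tag on the nuclear envelope. Flow sorting then parts tagged nuclei (GFP-positive), which come from cells that use the long receptor form LepRb, from untagged ones (GFP-negative). The comparison rests on 8 of the 75 samples of the series, namely the 2 fasted and the 2 fed GFP-negative libraries of ATAC-seq and the same of H3K27ac ChIP-seq. These 8 libraries were chosen by sort and treatment alone, with no measured value. The H3K27ac comparisons with Fed replicate 2 alone and with 10 libraries leave others out because of their measured signal.

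The Fast mice had no food for 36 h and received saline at 12, 24 and 34 h. The Fed mice ate freely for 36 h. Their label also names saline, while the protocol names no injection in them, so a saline effect and a fasting effect cannot be told apart. All mice were kept for at least 2 months on a chow diet. Hypothalami were pooled, and the labels do not say whether replicates 1 and 2 are separate pools. P-values therefore measure the spread between these libraries, which may be technical. No label gives the sex of the animals in a library. The GFP-negative sort is what Cre did not mark, a mixture of neurons and other cells of the hypothalamus, and in such bulk nuclei a change in the share of a cell type and a change of signal per nucleus cannot be told apart. GFP marks any cell in which Cre has been active at any time.

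Fat cells secrete leptin, its level in blood drops in a fast, and the hypothalamus reads it to adjust feeding and energy use. Open chromatin, which ATAC-seq measures by the cutting of a transposase, marks promoters, enhancers and other regulatory DNA that proteins can reach. Acetylation of histone H3 at lysine 27, H3K27ac, marks promoters and enhancers that are active and can change with the activity of neurons. Nuclei without LepRb hold most hypothalamic cells, including cells downstream of the leptin-responsive neurons and cells that respond to other signals of hunger.

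Values are the authors' normalized signal per region, and changes are differences of log2(signal + 1), Fast minus Fed, which understate the change of weak regions. Regions with a mean signal of 10 or more over all 16 libraries of an assay were tested, 31358 of 48634 ATAC regions and 98529 of 126368 H3K27ac regions. Regions are named by their mm9 position, chromosome:start-end counted from 1. Gene names and annotation of that build were not used here, so no gene, exon or intron is given and the defining markers of the sorted cells were not checked. The authors' signal summed over all regions was 1267803 to 1376345 in the 4 ATAC libraries. It was 9490759 to 9601341 in the H3K27ac libraries, apart from 10963342 in Fed replicate 1.

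In open chromatin, no region differed between Fast and Fed at an adjusted p under 0.05 (limma, Benjamini-Hochberg; 0% of 31358 tested), and the smallest adjusted p was 1. Without adjustment, 567 regions had a p under 0.05, or 1.81% of those tested, 270 of them higher and 297 lower in Fast. The median change over all tested regions was 0.0061 on the log2 scale. Against Fed replicate 1 alone 0 regions were called (679 with an unadjusted p under 0.05, 2.17%), and against Fed replicate 2 alone 1 was called (0.00319%; 811 unadjusted, 2.59%). That region, chr5:92626287-92626926, read 7.8 and 12.9 in Fast, 10.3 in Fed replicate 1 and a listed 0 in Fed replicate 2, so the groups overlap. The 95% confidence interval of a single region, without adjustment, reached a median of 0.72 log2 units to either side of its estimate. At a typical region a smaller change would not pass even without adjustment. A call after adjustment needed more: the largest log2 difference among the 10 higher candidates described below, 2.09, was not called.

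The 2 libraries of a group differed from each other as much as from the other group. The median absolute difference per region was 0.28 log2 units between the Fast replicates and 0.31 between the Fed replicates. Between a Fast and a Fed library it was 0.25 to 0.30. Across regions, Pearson's r was 0.914 between the Fast replicates, 0.904 between the Fed replicates and 0.906 to 0.924 between groups; these are correlations over regions of the same 4 libraries, and regions are not independent replicates. Fast replicate 1 was closest to Fed replicate 1 (r = 0.924), and Fast replicate 2 to Fed replicate 2 (r = 0.917).

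Both Fast libraries lay above both Fed libraries at 4510 ATAC regions (14.4%) and below both at 4722 (15.1%). Against a single Fed library such shares are larger: 33% above and 33.5% below Fed replicate 1, and 32.6% above and 32.7% below Fed replicate 2. The regions of each kind with the smallest p are described next as the leading candidates of this comparison. They were picked by the contrast itself, so their differences are a description, and each had an adjusted p of 1.

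The leading higher region, chr9:72816033-72816741, had a signal of 17.7 and 31.2 in Fast and 8.8 and 8.5 in Fed. The log2 difference was 1.35 (SE 0.34). The Fed libraries were nearly equal, and most of the spread lay between the Fast replicates. Its GFP-positive libraries gave 15.5 and 24.1 in Fast and 22.7 and 20.9 in Fed, groups that overlap.

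At chr17:56263439-56264380 the signal was 23.9 and 20.7 in Fast and 8.0 and 7.3 in Fed, a log2 difference of 1.43 (SE 0.37). At chr6:137546667-137547402 it was 15.4 and 16.8 against 7.3 and 2.5. Fed replicate 2 was the lowest library there. At chr4:152287301-152287865 the Fast values were 10.1 and 7.8, and the Fed values were 4.4 and a listed 0.

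The stronger regions among the higher candidates had smaller differences. At chr13:96793449-96794550 the signal was 36.3 and 35.9 in Fast and 22.5 and 18.8 in Fed, with the Fast replicates nearly equal. At chr7:135815294-135816823 it was 46.4 and 47.9 against 22.5 and 34.3, and at chr5:136591653-136593056 it was 45.6 and 39.6 against 19.4 and 31.1. In those last regions the Fed replicates were farther apart from each other than the Fast replicates were. Over the 10 higher candidates the fold ran from 1.67 to 4.25 and the mean signal from 10.3 to 41.9.

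Among the lower candidates, chr9:111187951-111188645 had a signal of 7.8 and 5.7 in Fast and 18.6 and 17.7 in Fed, a log2 difference of -1.32 (SE 0.39). Both Fed values were over 2 times each Fast value. At chr2:129389642-129390399 the signal was 5.5 and 7.8 against 15.6 and 23.3, and at chr11:97212762-97213941 it was 10.1 and 8.8 against 17.1 and 24.4. At chr4:141682574-141683341 it was 4.0 and 4.6 against 13.3 and 13.1, where both groups were tight.

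The lower candidates also held some of the longer and stronger ATAC regions. The region chr9:44095077-44097448, 2372 bp long, had a signal of 32.4 and 42.4 in Fast and 69.2 and 56.9 in Fed. Both Fast libraries lay below both Fed libraries in GFP-positive nuclei as well, with 36.0 and 39.3 in Fast and 58.1 and 64.7 in Fed (log2 difference -0.69 against -0.74 in GFP-negative nuclei). Its GFP-positive change was not called (adjusted p = 0.782, limma), and of the 20 candidates it alone had an unadjusted p under 0.05 there. In that sort 0 ATAC regions were called, and 1777 had an unadjusted p under 0.05 (5.67%). The region chr17:25376586-25381151, 4566 bp long, had 52.6 and 28.4 in Fast and 84.1 and 60.1 in Fed, with the replicates of both groups far apart.

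**Figure D1:**
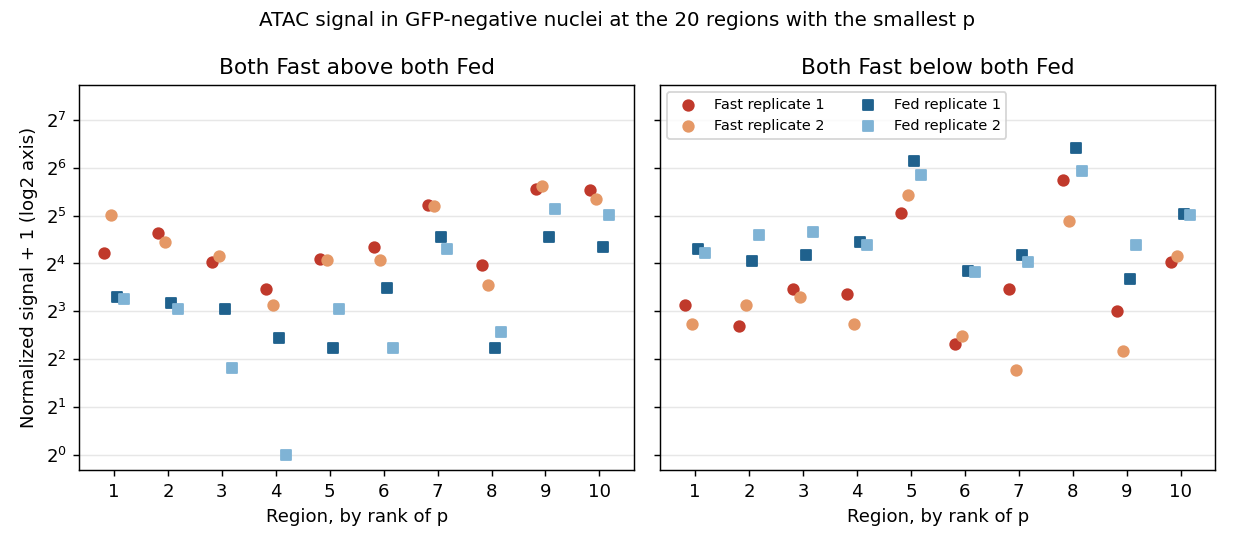
ATAC normalized signal plus 1 on a log2 axis for the 4 GFP-negative libraries at the 10 higher (left) and 10 lower (right) regions with the smallest p, in order of p on the x axis; each point is 1 library, and no point is a mean. Fast and Fed points do not overlap at any of the 20 regions, which is how they were picked, and the gap between groups is often close to the gap between replicates.

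The surroundings of these candidates showed no common direction for the higher list. Of 38 tested regions within 50 kb of the 10 higher candidates, 6 had both Fast above both Fed (15.8%) and 4 had both below (10.5%), beside 14.4% and 15.1% of all tested regions. Of 36 around the 10 lower candidates, 7 were lower (19.4%) and 0 were higher. Over all 21459 pairs of neighbouring ATAC regions, Spearman's rho between the changes of the 2 neighbours was 0.031, beside 0.065 for the difference between the Fast replicates; this is across regions of shared libraries and is a description.

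The ATAC region with the highest signal was mitochondrial DNA, chrM:5-16276, whose chromatin has no histones and is cut freely. Its signal was 85282 and 105195 in Fast and 125725 and 133436 in Fed. As a share of all ATAC signal this was 6.73% and 7.91% in Fast and 9.41% and 9.69% in Fed, so the groups did not overlap. In leptin-treated fasted mice it was 66493 and 121105 (Lep2, leptin at 5 mg/kg given at 34 h) and 86483 and 82222 (Lep24, leptin at 12, 24 and 34 h), all below both Fed values. GFP-positive nuclei gave 113738 and 114870 in Fast and 89057 and 118175 in Fed, groups that overlap. The log2 difference in GFP-negative nuclei was -0.45 (SE 3.59, adjusted p of 1, limma). That SE comes mostly from the spread that the fit's intensity trend expects at so strong a signal, not from these libraries. Replicate 1 minus replicate 2 was -0.30 in Fast and -0.086 in Fed on the log2 scale. With 2 against 2 libraries, no two-sided exact permutation p below 0.333 is possible.

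Over all tested ATAC regions 14.4% had both Fast above both Fed and 15.1% had both below, and shares of classes are read against these. Of 8021 regions of 1500 bp or more, 865 had both Fast above both Fed (10.8%) and 1367 had both below (17%), and the median log2 change was -0.018. It was -0.039 against Fed replicate 1, -0.025 against Fed replicate 2 and -0.019 between the Fast replicates. With each library centred on its median it was 0.0013. Centring also moved the median of all tested ATAC regions, from 0.0061 to 0.026, so the class stayed below it. Among 12162 ATAC regions inside H3K27ac regions of 10 kb or more, 12.9% were higher and 18% lower. Their median was -0.022, and -0.0023 with centring, in both cases below that of all tested regions. In leptin-treated mice, whose libraries enter the fit's spread and filter but not the Fast or Fed values, 584 regions differed between sorts (1.86%; limma, adjusted p under 0.05). Among the 300 that were more open in GFP-negative nuclei, 15% were higher and 11% lower in Fast, with a median of 0.0097, beside -0.27 between the Fast replicates. Among the 284 that were less open, 11.6% were higher and 23.6% lower, with a median of -0.055, which was -0.12 against Fed replicate 1 and -0.0091 against Fed replicate 2, beside 0.055 between the Fast replicates.

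In H3K27ac, the 2 Fed libraries were not alike. Fed replicate 1 held 12.0% of its signal in 1 region, chr2:98502227-98507677, with a signal of 1315249 beside 22205 and 10504 in Fast and 36714 in Fed replicate 2. Its mitochondrial signal was 26118, against 1566 and 1131 in Fast and 1931 in Fed replicate 2. Mitochondrial DNA is not wrapped in histones. It is one of a set of 6 libraries with high values, replicate 1 of each of Fed, Lep2 and Lep24 from either sort, with mitochondrial signals of 7266 to 26118, while the other 10 gave 941 to 3667. Both Fast libraries belong to the other 10, so within the set there is no Fast library to compare. Results are therefore given with both Fed libraries and with Fed replicate 2 alone. Leaving out Fed replicate 1 does not take the rest of the set out of the fit. Lep2 and Lep24 of both sorts and GFP-positive Fed still pair a library of the set with 1 outside it. That difference enters the spread behind each H3K27ac p in the fits to 16 and 15 libraries. Few calls in those fits do not show that the signal was unchanged.

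The region-by-region comparison shows the same split. Pearson's r across regions was 0.967 between the Fast replicates, 0.966 and 0.957 between each Fast library and Fed replicate 2, and 0.846 to 0.869 between Fed replicate 1 and the other libraries. The median absolute log2 difference was 0.21 between the Fast replicates. It was 0.22 and 0.24 between each Fast library and Fed replicate 2, somewhat more than between the Fast replicates, and 0.56 and 0.57 between each Fast library and Fed replicate 1.

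With both Fed libraries, no H3K27ac region was called (0% of 98529; smallest adjusted p 0.705, limma with Benjamini-Hochberg). Without adjustment, 5596 regions had a p under 0.05 (5.68%), 2299 higher and 3297 lower. Against Fed replicate 1 alone, 20 regions were called, all higher (0.0203%), and 19201 had an unadjusted p under 0.05 (19.5%). At 9 of those regions Fed replicate 2 lay within or above the Fast values, and at 11 both Fast lay above it. Over all tested H3K27ac regions, both Fast lay above Fed replicate 2 at 35.6%.

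Against Fed replicate 2 alone, 2 H3K27ac regions were called (0.00203%), both higher in Fast, and 1938 had an unadjusted p under 0.05 (1.97%), 1195 higher and 743 lower. The first, chr5:35208157-35209838, had a signal of 15.4 and 18.5 in Fast and a listed 0 in Fed replicate 2, with 4.2 in Fed replicate 1 (adjusted p = 0.0243, limma). The second, chr2:151705136-151706113, had 9.8 and 15.6 in Fast, a listed 0 in Fed replicate 2 and 16.1 in Fed replicate 1 (adjusted p = 0.0498). At the first region both Fed libraries were lower than Fast, and at the second Fed replicate 1 was above both Fast libraries. Both calls were lost with a pseudocount of 5, when no region was called, and both rest on a value of 0 in 1 library. Fed replicate 2 was listed at 0 in 48 of the tested regions (0.0487%).

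A fit to the 10 libraries outside the set also leaves Fed replicate 2 against both Fast libraries. It called 24 regions (0.0244% of 98529), all higher in Fast. At 14 of them Fed replicate 2 was listed at 0, with Fast values of 5.8 to 21.4 and Fed replicate 1 at 4.2 to 24.5. The other 10 were regions of 3045 to 16645 bp with strong signal, and they are described here after their values were seen. At each of the 10, Fed replicate 1, which that fit did not use, also lay below both Fast libraries, as it did at 5 of the 14. Both Fast libraries lay above Fed replicate 1 at 40.5% of all tested H3K27ac regions. Fed replicate 1 was low at regions of this kind in general. H3K27ac regions that hold an ATAC region, as 9 of the 10 do, had a median change of 0.33 against it. Its place below Fast is therefore not a separate check on the 10. The fit had 2 residual degrees of freedom, all from the Fast groups of the 2 sorts. It assumes that Fed replicate 2 varies like them, and it favours regions where the Fast pairs of both sorts are close.

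The strongest of the 10 was chr7:31734102-31750746, with a signal of 773.8 and 872.6 in Fast and 411.7 and 583.6 in Fed. Its log2 difference from Fed replicate 2 was 0.49 (SE 0.09; adjusted p = 0.0431, limma). The Fast values were above both Fed values, and replicate 1 was the lower Fed library. The region with the smallest adjusted p, chr16:24389829-24395839, had 429.6 and 446.0 in Fast and 238.0 and 277.3 in Fed (log2 difference 0.66, SE 0.10; adjusted p = 0.00546). Here both pairs of replicates were close, and the groups were well apart.

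At chr2:30116664-30126420 the signal was 551.2 and 510.3 in Fast and 275.9 and 309.9 in Fed, with a log2 difference of 0.77 from Fed replicate 2 (SE 0.12; adjusted p = 0.00641). This region was strong in GFP-negative nuclei and weaker in GFP-positive nuclei, where it read 162.9 and 138.1 in Fast and 158.0 and 116.3 in Fed. At chr8:89265083-89271526 the signal was 538.6 and 589.8 in Fast and 200.8 and 364.1 in Fed, and at chr6:72845467-72852917 it was 563.3 and 643.6 against 223.0 and 398.5. In both, Fed replicate 1 was well below Fed replicate 2.

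The rest of the 10 regions differed in which Fed library was lower. At chr19:29878516-29881560 (384.9 and 439.2 in Fast, 119.8 and 270.2 in Fed), chr2:34224400-34229650 (332.0 and 388.7 against 134.9 and 232.6) and chr9:107131434-107139000 (370.1 and 450.0 against 127.9 and 259.7) Fed replicate 1 was again the lowest library. At chr9:69300653-69308231 (142.8 and 147.5 in Fast, 116.4 and 78.6 in Fed) and chr16:8880926-8885598 (76.4 and 74.9 against 63.1 and 36.1) Fed replicate 2 was the lowest, and Fed replicate 1 lay between it and Fast. The latter had the largest log2 difference from Fed replicate 2 of the 10, 1.05 (SE 0.19; adjusted p = 0.0431). At both of these the GFP-negative leptin libraries spread to or past the Fast values, from 120.3 to 152.8 at the first and from 59.2 to 103.4 at the second.

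With all 16 libraries the change of these 10 regions against both Fed replicates ran from 0.60 to 1.19 on the log2 scale. Of the 10, 8 had an unadjusted p under 0.05, and none was called after adjustment. The region ranked first in the fit to 10 libraries, chr16:24389829-24395839, was not among the 8 (unadjusted p = 0.071, limma). With Fed replicate 2 alone, in the fit to 15 libraries, the log2 differences were the same as in the fit to 10, from 0.49 to 1.05. The calls came only with the whole set of 6 left out, and so depend on that choice. At chr16:24389829-24395839 the SE was 0.39 with 16 libraries and 0.10 with 10, where only the Fast groups give residual spread.

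In the GFP-positive sort, both Fast libraries also lay above both Fed libraries at 7 of these 10 regions, beside 20.9% of all tested H3K27ac regions (22.4% had both below). This sort is not a separate check. The closeness of its Fast pair entered the fit that picked the regions, and its Fed replicate 1 is in the set. Its median change over all H3K27ac regions that hold an ATAC region was 0.13. In that sort 0 H3K27ac regions were called, and 1738 had an unadjusted p under 0.05 (1.76%). At chr6:72845467-72852917, for example, the GFP-positive signal was 544.0 and 524.0 in Fast and 320.5 and 343.2 in Fed. By limma, 0 of the 10 differed between sorts in their change, also without adjustment. Of the replicate 2 leptin libraries of GFP-negative nuclei, which are outside the set, Lep24 lay below both Fast libraries at 9 of the 10 regions and Lep2 at 7. At chr8:89265083-89271526 they read 432.9 (Lep24) and 415.4 (Lep2), between Fed replicate 2 and Fast. The regions were picked for high Fast values, which by itself favours leptin libraries below Fast. The share of all tested regions with this order is not given here. The order is a description, and an effect of leptin was not tested.

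ATAC signal at the same places had no common direction. Of these 10 regions 9 held ATAC regions, 10 in all, with log2 changes of -0.42 to 0.27. Both Fast lay above both Fed at 1 of these 10 ATAC regions and below both at 2. At chr16:24389829-24395839 the ATAC region inside had 25.4 and 21.7 in Fast and 37.5 and 23.3 in Fed, groups that overlap. At chr19:29878516-29881560 it had 93.4 and 102.1 in Fast and 73.3 and 89.5 in Fed (log2 difference 0.27, SE 0.21; adjusted p of 1, limma).

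**Figure D2:**
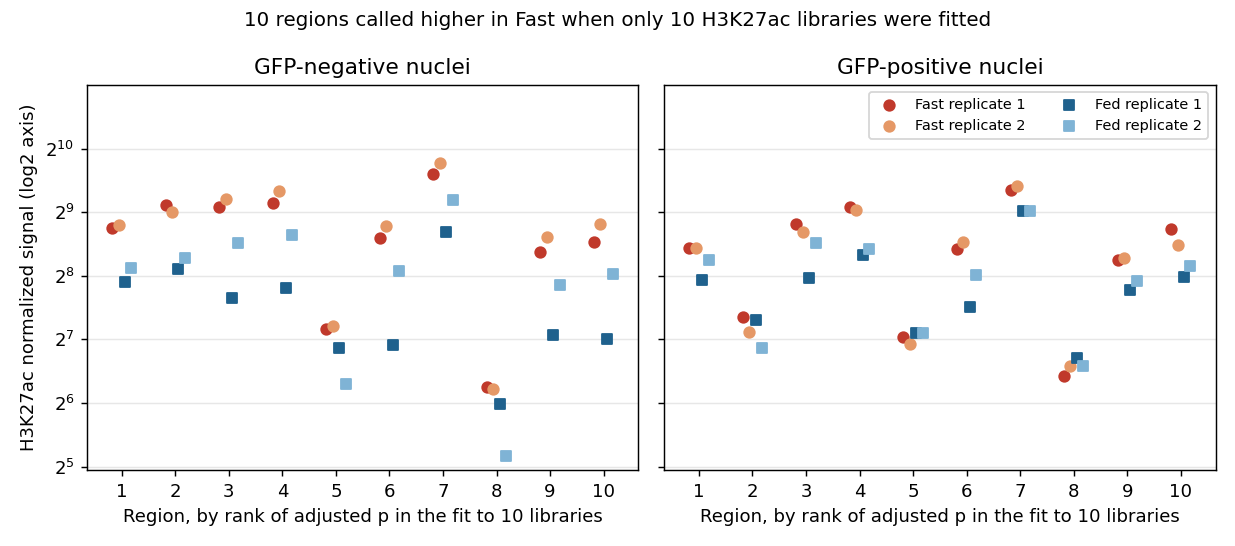
H3K27ac normalized signal on a log2 axis at the 10 strong regions called when only the 10 libraries outside the set of 6 were fitted, in order of adjusted p on the x axis, for GFP-negative (left) and GFP-positive nuclei (right); each point is 1 library. On the left both Fast points lie above both Fed points at every region, partly because the regions were picked so, and on the right they do at 7 of 10.

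With both Fed libraries, both Fast lay above both Fed at 20439 H3K27ac regions (20.7%) and below both at 21892 (22.2%). Against Fed replicate 1 alone the shares were 40.5% and 45.8%. The candidates with the smallest p among them had weak signal, means of 10.3 to 36.1, and all had an adjusted p of 0.705. The leading higher region, chr2:11364299-11365293, read 19.9 and 21.3 in Fast and 5.0 and 7.3 in Fed, a log2 difference of 1.61 (SE 0.30). The second, chr17:45214450-45217144, was the strongest of the higher 10, with 69.0 and 51.5 in Fast and 23.5 and 24.1 in Fed (log2 difference 1.29, SE 0.24). Both stayed apart from Fed replicate 2 alone, by 1.38 and 1.27. At the second, GFP-positive nuclei read 27.4 and 22.5 in Fast and 32.6 and 27.3 in Fed, about the level of fed GFP-negative nuclei.

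In further higher candidates the Fast replicates were close, and the Fed replicates were farther apart on the log2 scale. At chr9:60667775-60669223 the signal was 22.9 and 22.7 in Fast and 3.4 and 7.3 in Fed, at chr16:38679840-38680494 it was 20.7 and 24.1 against 6.6 and 4.4, and at chr13:95608377-95609626 it was 34.0 and 29.5 against 8.2 and 13.1. At the second of these the GFP-positive libraries went the other way, with 4.4 and 4.3 in Fast and 9.6 and 9.8 in Fed. The third had both Fast above both Fed in both sorts, with 27.4 and 29.3 in fasted and 13.3 and 17.6 in fed GFP-positive nuclei.

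Of the lower H3K27ac candidates, chr7:125169654-125170532 read 11.4 and 8.2 in Fast and 28.3 and 34.8 in Fed, a log2 difference of -1.60 (SE 0.32). It also led the regions that were lower than Fed replicate 2 alone (log2 difference -1.74, adjusted p of 1, limma). The GFP-positive values were 23.3 and 20.2 in Fast and 13.3 and 13.2 in Fed, the opposite order. At chr2:162690320-162692569 the signal was 9.8 and 6.6 against 29.3 and 33.5, and at chr1:75045332-75047407 it was 10.6 and 11.2 against 32.2 and 25.4. The strongest lower candidate, chr10:58601316-58604500, had 20.7 and 19.9 in Fast and 84.8 and 46.6 in Fed, where the Fed replicates were far apart.

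Of 72 tested regions within 50 kb of the higher 10, 26 were also higher (36.1%) and 11 lower (15.3%), beside 20.7% and 22.2% of all. Of 73 around the lower 10, 32 were also lower (43.8%) and 3 higher (4.11%). Over 48712 pairs of neighbours with a gap of up to 50 kb, Spearman's rho between their changes was 0.17 with both Fed libraries, 0.19 with Fed replicate 1 and 0.051 with Fed replicate 2, beside 0.013 for the difference between the Fast replicates. Over 41468 pairs of regions that adjoin without a gap, rho was 0.0044 with both Fed libraries, -0.0030 with Fed replicate 1 and 0.023 with Fed replicate 2. Only the pairs with a gap were alike, and mostly in the difference from Fed replicate 1; rho is across regions of shared libraries and has no test.

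**Figure D3:**
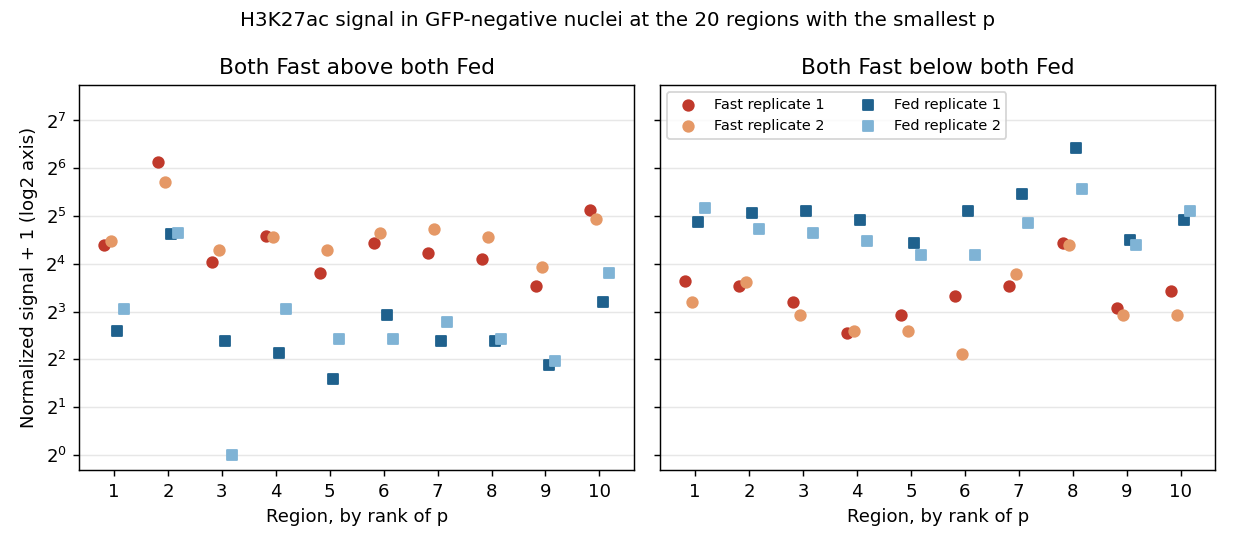
H3K27ac normalized signal plus 1 on a log2 axis for the 4 GFP-negative libraries at the 10 higher (left) and 10 lower (right) regions with the smallest p against both Fed libraries, in order of p; each point is 1 library. Fast and Fed points do not overlap at any of the 20 regions, as they were picked, and the third higher region has Fed replicate 2 at a listed 0.

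The longest H3K27ac regions had less signal in both Fast libraries than in either Fed library as deposited, by little against Fed replicate 2, and quantile normalization turned the sign at 4 of the 5. The longest of all, chr18:25626101-25919830, 293730 bp, read 6891 and 6626 in Fast and 12435 and 8136 in Fed. The next, chr15:27667533-27900149, read 4428 and 4227 in Fast and 7568 and 4772 in Fed. All 5 of the longest regions had this order, as deposited, with log2 differences of -0.57 to -0.36 against both Fed libraries. Over 9296 regions of 10 kb or more the median log2 change was -0.15 in GFP-negative and -0.16 in GFP-positive nuclei. In GFP-negative nuclei 14.9% were higher and 36.3% lower, beside 20.7% and 22.2% of all tested H3K27ac regions. The GFP-negative median was -0.27 against Fed replicate 1 and -0.036 against Fed replicate 2, beside 0.032 between the Fast replicates. Against Fed replicate 2 alone 29.4% were higher and 45.4% lower, where 35.6% and 34.8% of all tested regions were.

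H3K27ac regions that hold an ATAC region had medians of the other sign. Over 30011 of them the median change was 0.19, with 32.1% higher and 15.9% lower, beside 20.7% and 22.2% of all tested H3K27ac regions. Over the 68518 without an ATAC region it was -0.10, with 15.8% higher and 25% lower. Against Fed replicate 2 alone these medians were 0.029 and -0.023, and against Fed replicate 1 they were 0.33 and -0.20. The medians against Fed replicate 2, the library without high mitochondrial signal, were the closer to 0. In GFP-positive nuclei the medians with and without an ATAC region were 0.13 and -0.076 against both Fed libraries.

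Regions on the X chromosome had a higher median change than autosomal regions in both assays, where the autosomal medians were 0.0042 (ATAC) and -0.019 (H3K27ac). Of 547 tested ATAC regions on X, both Fast lay above both Fed at 19.7% and below both at 8.59%, beside 14.4% and 15.1% of all tested ATAC regions, and the median log2 change was 0.097. Of 1438 H3K27ac regions on X, 36.8% were higher and 9.18% lower, beside 20.7% and 22.2% of all tested H3K27ac regions, with a median change of 0.39. The ATAC median was 0.15 against Fed replicate 1 and 0.013 against Fed replicate 2, and the H3K27ac median was 0.64 and 0.090, beside -0.035 and -0.051 between the Fast replicates of the 2 assays. The direction was the same against each Fed library, and the size was mostly that of the difference from Fed replicate 1.

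By library, the mean log2 ATAC signal of X regions minus that of autosomal regions was -0.035 and -0.015 in Fast and -0.17 and -0.058 in Fed. The 4 GFP-negative leptin libraries, from fasted mice too, gave -0.044 to 0.044, all above both Fed libraries. In GFP-positive nuclei the ATAC value was -0.10 and -0.097 in Fast and -0.12 and -0.088 in Fed, which overlap. For H3K27ac it was 0.032 and 0.057 in Fast and -0.53 and -0.036 in Fed, while the replicate 2 leptin libraries gave -0.073 (Lep2) and -0.15 (Lep24), below Fed replicate 2. The 6 libraries of the set gave -0.68 to -0.42. GFP-positive H3K27ac gave 0.24 and 0.18 in Fast and -0.42 and 0.098 in Fed. The 27 tested H3K27ac regions on the Y chromosome had a median change of -2.12, and -0.63 against Fed replicate 2. Summed Y signal was 1399 and 1070 in Fast and 15472 and 1924 in Fed, lower in both Fast libraries. The replicate 2 leptin libraries of GFP-negative nuclei, from fasted mice too, gave 2191 (Lep2) and 2067 (Lep24), above Fed replicate 2. In GFP-positive nuclei it was 944 and 2288 in Fast and 2855 and 2020 in Fed, groups that overlap. The sexes pooled in each library are not given, and their part in these values was not tested.

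**Figure D4:**
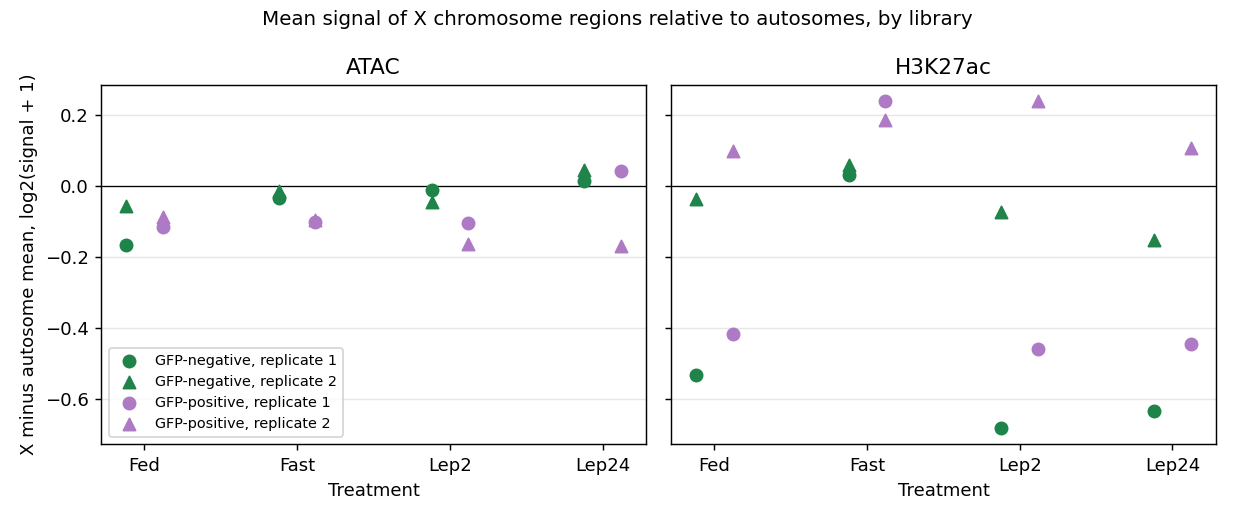
Mean log2(signal + 1) of tested X chromosome regions minus that of autosomal regions in each ATAC (left) and H3K27ac library (right), by treatment; colour is the sort, circles are replicate 1 and triangles replicate 2. GFP-negative Fast lies above both GFP-negative Fed libraries in both assays, and the 6 H3K27ac libraries between -0.68 and -0.42 are the first replicates of Fed, Lep2 and Lep24.

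**Figure D5:**
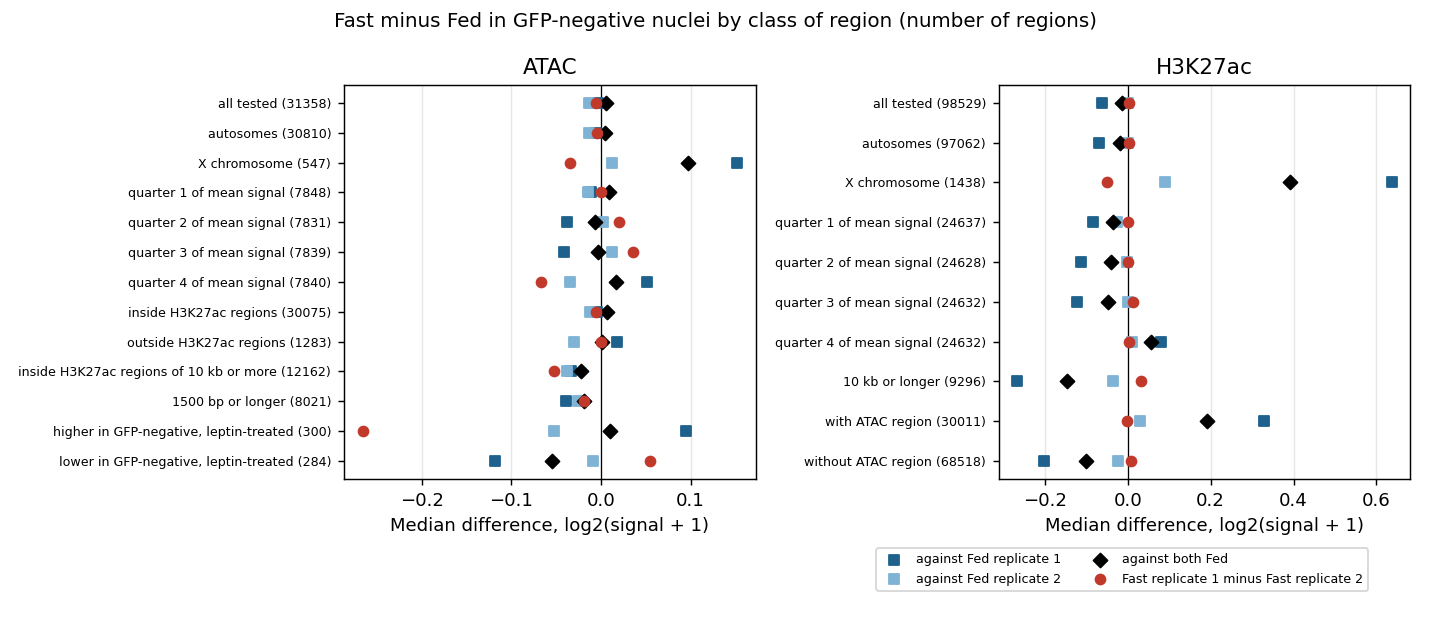
Median difference in log2(signal + 1) per class of region in GFP-negative nuclei for ATAC (left) and H3K27ac (right), with the number of regions in brackets; squares are Fast minus each Fed replicate, diamonds Fast minus both, and circles the difference between the Fast replicates. In H3K27ac the differences from Fed replicate 2 lie near 0 and those from Fed replicate 1 reach 0.64 on the X chromosome.

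Changes in the 2 assays were barely related where an ATAC and an H3K27ac region overlapped. Over 30698 overlapping pairs, Spearman's rho between the ATAC and the H3K27ac change was 0.070, and 0.035 with Fed replicate 2 alone in H3K27ac. Between the ATAC change and the difference of the H3K27ac Fed replicates, replicate 1 minus 2, rho was -0.070. Of 4372 pairs whose ATAC region was higher in Fast, 31.4% had a higher H3K27ac region, where 30.6% of all pairs did, and 19.2% had a lower one. Of 4659 pairs whose ATAC region was lower, 24.6% had a lower H3K27ac region, where 20.8% of all pairs did, and 26.2% had a higher one. These are shares over regions of the same libraries, with no test.

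Pairs of overlapping regions on the same side in both assays gave few clear candidates. At chr7:17643436-17644087 the ATAC signal was 36.3 and 33.1 in Fast and 17.1 and 10.8 in Fed. The H3K27ac region that overlaps it, chr7:17643815-17645357, read 130.5 and 129.6 in Fast and 32.2 and 72.3 in Fed. The log2 differences were 1.29 (SE 0.51) and 1.41 (SE 0.62), and in both assays both Fast libraries were above both Fed. GFP-positive nuclei had little signal there, 10.9 and 10.6 in fasted and 16.5 and 9.8 in fed nuclei for H3K27ac. In leptin-treated GFP-negative nuclei the ATAC signal was 29.3 and 50.8 (Lep2) and 14.6 and 34.1 (Lep24).

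The leading pair in the other direction lay at chr14:69986332-69987046, where ATAC read 8.5 and 11.9 in Fast and 22.5 and 18.8 in Fed. The H3K27ac region around it, chr14:69979609-69988376, 8768 bp long, read 153.0 and 113.6 in Fast and 346.9 and 233.8 in Fed. The log2 differences were -0.96 (SE 0.40) and -1.11 (SE 0.45), and neither was called (adjusted p of 1 and 0.705, limma). Of 29 tested H3K27ac regions within 50 kb, 13 were also lower and 0 higher, beside 22.2% and 20.7% of all tested regions. The next lower pairs, at chr4:8218914-8219750 (ATAC 6.3 and 4.6 against 11 and 9.7) and chr1:35982811-35983866 (10.8 and 5.7 against 16.3 and 13.1), also lay in long H3K27ac regions, of 13825 and 15622 bp.

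The fasting change was compared between the sorts. For ATAC, 0 of 31358 regions differed in their change between GFP-negative and GFP-positive nuclei (limma interaction; 1122 had an unadjusted p under 0.05, 3.58%). Without GFP-positive Fast replicate 1 that count was 151, which then rested on a single fasted GFP-positive library, assumed to vary like the other groups. Spearman's rho between the changes of the 2 sorts was 0.0046 across regions, and of the 4510 regions that were higher in fasted GFP-negative nuclei, 15.8% were higher in fasted GFP-positive nuclei, where 15.2% of all regions were. For H3K27ac, 0 of 98529 regions differed (2095 with an unadjusted p under 0.05, 2.13%). Its rho was 0.44 with both Fed libraries and 0.12 with Fed replicate 2 alone in each sort. Fed replicate 1 of both sorts is in the set of 6. Of the H3K27ac regions that were higher in fasted GFP-negative nuclei, 35.4% were also higher in fasted GFP-positive nuclei, where 20.9% of all were. A p that misses the threshold does not show that the sorts respond alike: the 95% confidence interval of that difference reached a median of 1.01 log2 units for ATAC and was wider for H3K27ac.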

How the data were processed

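The authors deposited, per the file headers, 1 table per assay with normalized signal for each region and library, and variance-stabilized values on a log2 scale. How the signal was normalized is not stated in any label or header, and whole reads could not be recovered from the signal values, so depth is unknown and no count model was used. The 4 ATAC libraries hold 16 to 26 distinct signal values under 20, and the 4 H3K27ac libraries 13 to 24. Positions are on mm9, per the submitters' processing notes, which also list Bowtie2 2.2.6 and MACS2 without saying for which assay.

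Signal was taken to log2(signal + 1), and limma 3.58.1 (R 4.3.3) fitted a mean for each of 8 groups over 16 libraries, with 8 residual degrees of freedom and an intensity trend. P-values are two-sided and adjusted by Benjamini-Hochberg over regions with a mean signal of 10 or more. In the comparison with Fed replicate 2 alone, 15 libraries were fitted and Fed replicate 2 is assumed to vary like the rest. No 2 libraries held identical values. RNA and input libraries of the series were not analysed here, and the alternatives tried are given in the closing section. The fit was tested on simulated data.

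The named regions are, per assay, the 10 higher and 10 lower tested regions without overlap between groups that had the smallest p, for H3K27ac also 5 and 5 against Fed replicate 2 alone, 6 and 6 overlapping pairs ranked by the smaller change, the 5 strongest per assay and the 5 longest H3K27ac regions; the text prints a selection. The rule and the lists were chosen with earlier results of these data known. Planned gene lists and cell type markers need an mm9 annotation, which was not used here. Plots used matplotlib 3.10.9, and tables pandas 2.3.3.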

Additional observations from a re-analysis of the deposited data

How the results depend on the processing

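With 2 libraries per group and unknown depth, single regions could be judged only for large changes. The replicate numbers are not tied to a shared pool in the labels, and the replicate differences of Fast and Fed correlated at r = 0.15 across ATAC regions and 0.0095 across H3K27ac regions. With the replicate number as a block, 0 regions were called in both assays and in both differences between sorts (unadjusted p under 0.05 at 917 ATAC and 15922 H3K27ac regions). Without the filter on low signal, 3 ATAC regions were called, and 5 for the ATAC difference between sorts. Leaving out 1 library at a time gave 0 to 1 calls for ATAC (1 without Fast replicate 1, 1 without Fed replicate 1) and 0 to 20 for H3K27ac (1 without Fast replicate 1, 2 without Fed replicate 1, 20 without Fed replicate 2). It gave 0 to 1 for H3K27ac against Fed replicate 2 alone and for the H3K27ac difference between sorts, in both cases 1 without GFP-negative Fast replicate 1. For the ATAC difference between sorts it gave 0 to 151, with 151 without GFP-positive Fast replicate 1 and 1 without GFP-positive Fast replicate 2. With both Fed libraries, H3K27ac had 24 calls in the fit to the 10 libraries outside the set of 6 and 0 with the set as a term. The 2 calls against Fed replicate 2 alone became 15 with a pseudocount of 0.1, 4 with library weights and 1 with each library centred on its median. They became 0 with quantile normalization, a pseudocount of 5, a mean signal of 50 or more, the mean taken over the 4 Fast and Fed libraries, only the 8 GFP-negative libraries, only those 4, and the authors' variance-stabilized values, an alternative chosen after seeing the data. Quantile normalization turned the sign at chr2:98506418-98507401 in ATAC (0.1113) and at 4 of the 5 longest H3K27ac regions (0.6671 at chr18:25626101-25919830, 0.3106 at chr15:27667533-27900149, 0.2065 at chr8:119779124-119965366 and 0.7206 at chr5:125482615-125666891). The cause was not tested.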
